A study of Mus musculus with 10 samples.

Results

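The genes examined here were the 4 precursors of the endogenous opioid peptides (Penk, Pdyn, Pomc and Pnoc) and the 4 opioid receptors (Oprl1, Oprm1, Oprd1 and Oprk1). They were chosen by name, and all 8 were found among the 55367 genes listed for 10 single neurons. Each sample held the cytoplasm of 1 inspiratory neuron of the preBötzinger complex (preBötC), drawn into a patch pipette after recording in a rhythmically active brainstem slice bathed in raised potassium, and its RNA was amplified and sequenced (Patch-Seq). Samples 1, 5, 6 and 7 were Dbx1-derived neurons of Dbx1;Ai148 pups, in which Cre driven from the Dbx1 gene switches on the calcium indicator GCaMP6f, and samples 2, 3, 4, 8, 9 and 10 were neurons of CD-1 wild-type (WT) pups. These lines are those of the sample labels, on which every value by line rests. Captions in the study assign the lines to samples in another way, but the numbers of neurons by type and line in its text match the labels. By their firing, samples 4, 5, 6 and 7 were called Type-1, thought to generate the rhythm, sample 1 was called Type-2, thought to shape the output, and samples 2, 3, 8, 9 and 10 were of Unknown type. Samples 1, 3, 5 and 8 came from animals of postnatal day (P) 0, sample 10 from P1, samples 2 and 9 from P2, and samples 4, 6 and 7 from P3. The labels name no opioid or other drug treatment. Dbx1-derived neurons could be chosen by fluorescence, whereas WT neurons were chosen by activity alone, so the lines also differ in how their neurons were found and in genetic background.

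Opioid precursors are cut into short peptides: Penk gives the enkephalins, Pdyn the dynorphins, Pomc beta-endorphin together with melanocortins and corticotropin, and Pnoc nociceptin. The receptors couple to inhibitory G proteins, which close presynaptic calcium channels, open inwardly rectifying potassium channels and lower cyclic AMP. Oprm1 encodes the mu receptor, Oprd1 the delta receptor, Oprk1 the kappa receptor and Oprl1 the nociceptin receptor. Opioid drugs slow breathing through the mu receptor, and the preBötC is a site where they do so.

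Levels are given as FPKM, the number of fragments scaled to a gene length of 1 kilobase and a library of 1000000 counted fragments, and the libraries held 21392146 to 36629393 of them. A gene was called detected in a neuron at 1 FPKM or more. For a gene without a fragment, the limit that a count of 0 allows (3 counts) lay between 0.00895 and 0.106 FPKM over the 8 genes and 10 libraries. The reads carry no molecular identifiers, so limits and intervals cover counting error only. Each group is a set of single neurons and the labels name neither animals nor batches, so no test was made between groups, no p-value is given, and SDs describe the spread between neurons. All 8 neuron markers examined were at 1 FPKM or more in samples 3, 5, 6, 8 and 9, and 6 or 7 of them in the other samples. The summed neuron markers were lowest in sample 4 (58.4 FPKM, against 761 or more elsewhere), where all 8 microglia markers were at 1 FPKM or more, with a sum of 13573 FPKM; elsewhere 7 were detected in samples 2 and 10 (sums of 1811 and 198 FPKM), 6 in samples 5 and 8 (121 and 461), 5 in sample 3 (405), 3 in sample 6 (74.7), 2 in sample 1 (113) and none in samples 7 and 9. All 5 cholinergic markers were detected in sample 9, and at most 1 in any other sample. The libraries of samples 1 to 4 also stood apart in their general level: among the 10405 genes counted in 7 or more neurons, the median was 0.203 to 1.62 FPKM in samples 1 to 4, 3.47 in sample 9 and 7.60 to 8.66 in the other 5. Counts below are therefore also given without samples 4 and 9 and without samples 1 to 4, choices made after the data were seen.

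Detection of the opioid genes was uneven. Over the 10 neurons, 7 of the 8 genes were detected in at least 1. Of these 7, 2 were detected in at least 6 neurons, against 37.4% of the 16546 genes detected in any neuron, and 5 in at most 2 neurons, against 37% of those genes. The wide genes were 1 precursor, Penk, detected in 9 neurons, and 1 receptor, Oprl1, detected in 6. By mean FPKM over the 10 neurons the order was Penk (224 ± 278, SD, n = 10), Pdyn (24.6 ± 77.6), Oprl1 (16.7 ± 17.6), Pomc (1.94 ± 4.93), Oprm1 (0.859 ± 2.01), Oprd1 (0.345 ± 1.09), Pnoc (0.111 ± 0.326) and Oprk1 (0.0217 ± 0.0517). The SD exceeded the mean for all 8 genes. Since all 8 were measured in the same neurons, these SDs do not measure whether 1 gene lay above another within neurons. Single neurons set several places: without sample 10 the mean fell to 0.0443 FPKM for Pdyn and to 0 for Oprd1, without sample 7 to 0.424 for Pomc, without sample 6 to 0.267 for Oprm1 and 0.00640 for Oprk1, and without sample 2 to 0.00795 for Pnoc. Leaving out any 1 neuron kept Penk between 159.9 and 249 FPKM and Oprl1 between 13.6 and 18.6. The number of opioid genes detected was 0 in sample 1, 1 in samples 3 and 4, 2 in samples 2, 5, 8 and 9, 3 in sample 6, 4 in sample 7 and 5 in sample 10.

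**Figure D1:**
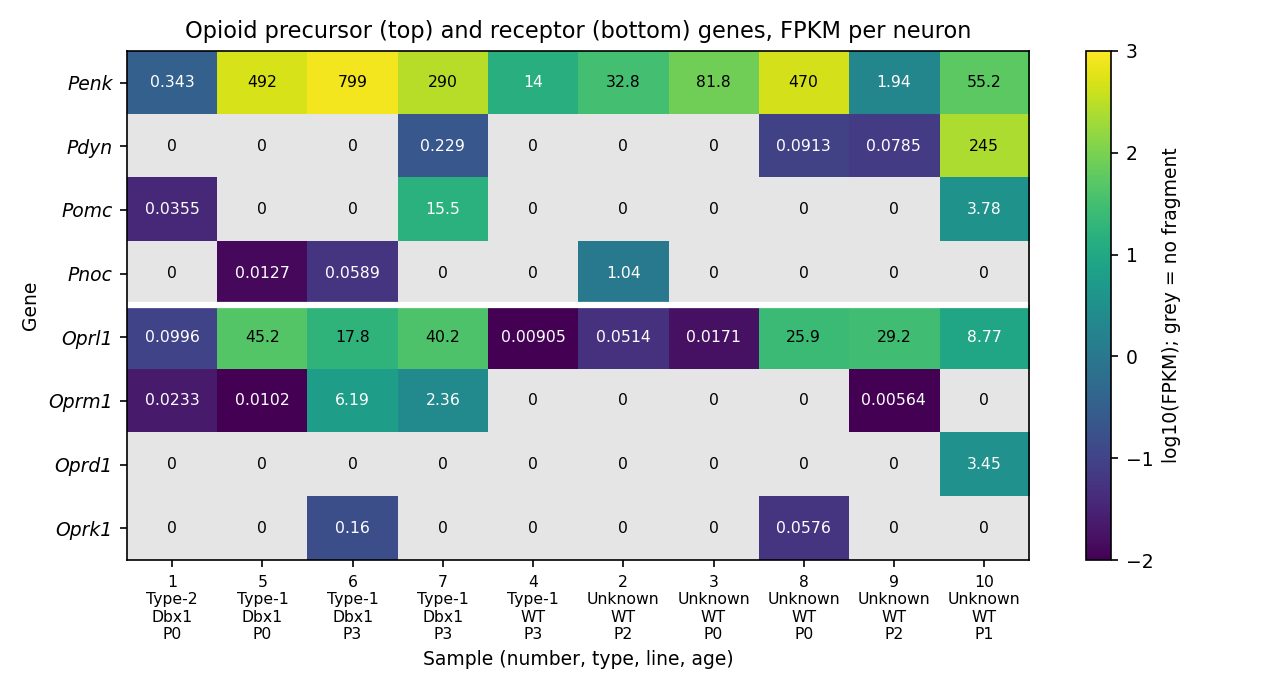
FPKM of the 4 opioid precursor genes (upper rows) and the 4 receptor genes (lower rows) in each of the 10 neurons, with columns arranged by line and type; each cell prints its FPKM, colour gives log10(FPKM) within the limits of the colour bar, and grey marks a gene with no fragment. Penk (9 neurons) and Oprl1 (6 neurons) fill most of their rows, and the other genes are coloured in a few neurons each.

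Penk, the enkephalin precursor, was the opioid gene with the highest mean. Like Oprl1, it had a fragment in every library. In samples 1 and 9 its 12 and 70 fragments were of the order expected from the other libraries, as given below. In the Dbx1-derived neurons it was at 0.343 FPKM in sample 1, 492 in sample 5, 799 in sample 6 and 290 in sample 7. In the WT neurons it was at 32.8 FPKM in sample 2, 81.8 in sample 3, 14.0 in sample 4, 470 in sample 8, 1.94 in sample 9 and 55.2 in sample 10. Samples 5, 6, 7 and 8 therefore stood above the other 6, of which the highest was sample 3. Penk was among the most abundant transcripts of these neurons: it ranked 22 among all genes in sample 6, 70 in samples 5 and 8, and 146 in sample 7, and took 0.131% of all gene fragments in sample 6. It made up 90.6% or more of the summed precursor FPKM in every neuron but sample 10, where it made up 18.1%. Penk lies on chromosome 4 (GRCm38 chr4:4133531-4138819, minus strand, 3 merged exons in GENCODE M21), and 233 of its exon bases are shared with the opposite-strand transcript A830012C17Rik. That transcript had 304 fragments in sample 5, 9 in sample 6, 602 in sample 7, 1 in sample 1 and 0 in the rest, where Penk had 29475 in sample 5 and 12187 in sample 7. How the counting treated strand is not given in the sources used here.

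The 4 neurons with the highest Penk were also those with the highest Slc17a6, the vesicular glutamate transporter of brainstem neurons. Slc17a6 was at 101 FPKM in sample 5, 158 in sample 6, 156 in sample 7 and 230 in sample 8, and at most 1.85 in the other 6 neurons. Those 4 neurons held Penk at 290 to 799 FPKM, and the other 6 at 0.343 to 81.8. Those 6 include samples 1 to 4, the libraries of lowest general level. Outside samples 1 to 4, the contrast rests on samples 9 and 10, with Penk at 1.94 and 55.2 FPKM. The part of general level in it was not tested. The inhibitory marker Gad1, an enzyme of GABA synthesis, was at 71.8 FPKM in sample 1, 37.2 in sample 3, 8.28 in sample 8 and 92.0 in sample 10, whose Penk was 0.343, 81.8, 470 and 55.2 FPKM. Penk thus ran from its lowest value to the upper group among the 4 neurons with Gad1, but only sample 8 of these was in the upper group. Gad2, another such enzyme, was at 43.5, 22.9, 2.53, 5.14 and 34.2 FPKM in samples 1, 3, 4, 7 and 10. Of these, only sample 7, with Penk at 290, was in the upper group. Slc6a5, the glycine transporter, was at 146 FPKM in sample 1 and 8.60 in sample 10. Slc32a1, a further inhibitory marker, was at 5.95 FPKM in sample 2, whose Penk was 32.8. In sample 8, Gad2 and Slc32a1 were at 0.0128 and 0.0135 FPKM, and Slc6a5 had no fragment. Over the 10 neurons, Pearson's r between log2(FPKM + 1) of Penk and Slc17a6 was 0.812, and Slc17a6 stood at place 76 of 10420 genes ranked by that likeness; the points share libraries and depth, and r is given as a description. Astrocyte markers were also high in some of these libraries: their sum was 645, 3574, 6463, 5125, 412, 151, 449, 2233, 936 and 400 FPKM in samples 1 to 10, with Apoe and Aldoc at 1 FPKM or more in all 10. It was lowest in sample 6, the neuron with the highest Penk. Oligodendrocyte-lineage markers summed to 205 FPKM in sample 2, 337 in sample 3, 107 in sample 8 and at most 55.1 elsewhere, and of 6 endothelial markers 1 (Tek, 6.82 FPKM in sample 1) was detected. The part of such RNA in the Penk values was not tested.

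**Figure D2:**
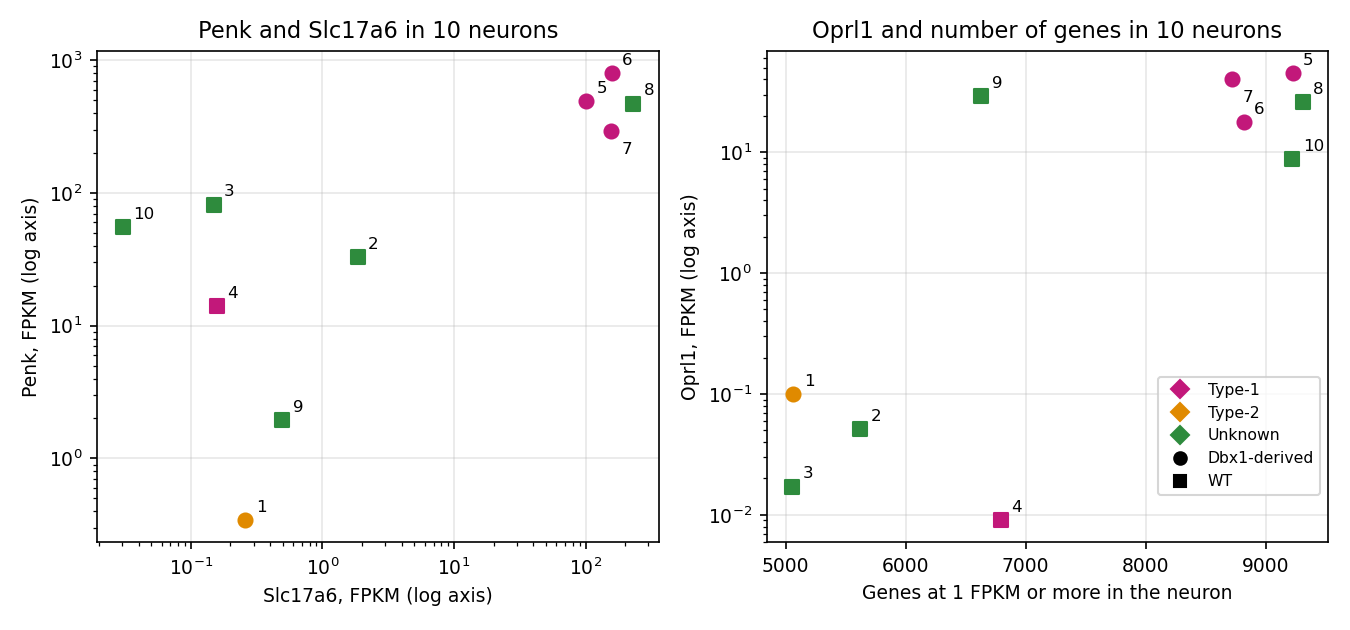
Left, Penk against Slc17a6, both in FPKM on log axes; right, Oprl1 in FPKM on a log axis against how many genes the neuron had at 1 FPKM or more; each point is 1 neuron with its sample number, colour gives the type, circles are Dbx1-derived and squares WT neurons. Samples 5, 6, 7 and 8 lie at the upper right of the left panel, and samples 4 and 9, with 6795 and 6632 genes, lie far apart in Oprl1 on the right.

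Pdyn, the dynorphin precursor, was abundant in a single neuron. It had no fragment in samples 1 to 6, was at 0.229 FPKM in sample 7, 0.0913 in sample 8 and 0.0785 in sample 9, and reached 245 FPKM in sample 10. Sample 10, a WT neuron of P1 with Gad1, held 99.8% of the summed Pdyn and ranked it at place 186 among its genes, so that Pdyn exceeded Penk there. Pdyn lies on chromosome 2 (chr2:129686565-129699844, minus strand).

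Pomc was detected in 2 neurons. It was at 15.5 FPKM in sample 7 (526 fragments), 3.78 in sample 10 (152 fragments) and 0.0355 in sample 1 (1 fragment), with no fragment in the other 7. Sample 7 is a Dbx1-derived Type-1 neuron and sample 10 a WT neuron, so the detections were split between lines. Pomc lies at chr12:3954951-3960642, plus strand.

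Pnoc, the precursor of the ligand of the Oprl1 receptor, was at the edge of detection. It was at 1.04 FPKM in sample 2, from 81 fragments, with an exact Poisson 95% interval of 0.823 to 1.29 FPKM that includes the detection limit. It was at 0.0127 FPKM in sample 5 (1 fragment) and 0.0589 in sample 6 (4 fragments), and had no fragment in the other 7. Sample 2, the neuron with Pnoc, held Oprl1 at 0.0514 FPKM, and none of the 6 neurons with Oprl1 had Pnoc above 0.0589 FPKM. Pnoc lies at chr14:65400673-65425472, minus strand.

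Oprl1, the nociceptin receptor, was the receptor gene with the highest mean and was detected in 6 neurons. It was at 45.2 FPKM in sample 5, 17.8 in sample 6, 40.2 in sample 7, 25.9 in sample 8, 29.2 in sample 9 and 8.77 in sample 10. In samples 1, 2, 3 and 4 it was at 0.0996, 0.0514, 0.0171 and 0.00905 FPKM, from 8, 7, 2 and 1 fragments. Neurons with Oprl1 included 3 of 4 Dbx1-derived and 3 of 6 WT neurons, and 3 of 4 Type-1 and 3 of 5 Unknown neurons. Samples 5, 6, 7, 8 and 10 were also the libraries with the most genes at 1 FPKM or more (8720 to 9307), and samples 1, 2, 3, 4 and 9 had 5055 to 6795. Samples 4 and 9 had 6795 and 6632 such genes and Oprl1 at 0.00905 and 29.2 FPKM, and sample 4 was the library with the lowest neuron markers and the highest microglia markers. The 4 neurons without Oprl1 were the 4 libraries of lowest general level, samples 1 to 4, and without them Oprl1 was detected in 6 of 6 neurons. The part of that level and of gene number in the Oprl1 values was not tested. Oprl1 made up 73.7% of the summed receptor FPKM in sample 6, 94.5% in sample 7 and 71.8% in sample 10, the only neurons in which a second receptor gene was detected. Oprl1 lies at chr2:181715016-181720985, plus strand.

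Oprm1, which encodes the mu receptor, was detected in 2 neurons, both Dbx1-derived, Type-1 and of P3. It was at 6.19 FPKM in sample 6 (1567 fragments) and 2.36 in sample 7 (487 fragments). It was at 0.0233 FPKM in sample 1 (4 fragments), 0.0102 in sample 5 (3 fragments) and 0.00564 in sample 9 (1 fragment), and had no fragment in samples 2, 3, 4, 8 and 10. Both neurons with Oprm1 also held Penk (799 and 290 FPKM), Oprl1 (17.8 and 40.2 FPKM) and Slc17a6. The third P3 neuron, sample 4, had no Oprm1 fragment, nor did sample 8, which had the highest Slc17a6. Oprm1 spans chr10:6758506-7038198 on the plus strand, with 22 merged exons, and shares 96 exon bases with the opposite-strand gene Ipcef1 and none with Gm10945. Ipcef1 had 558 fragments in sample 10, where Oprm1 had 0, and 1 and 0 in samples 6 and 7, so its fragments in sample 10 did not enter the Oprm1 count.

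Oprd1, which encodes the delta receptor, had 423 fragments in sample 10 (3.45 FPKM, exact Poisson 95% interval 3.13 to 3.79) and none in any other library. Oprk1, which encodes the kappa receptor and responds to dynorphins, was below 1 FPKM in all 10 neurons, at 0.160 FPKM in sample 6 (46 fragments) and 0.0576 in sample 8 (14 fragments), with no fragment in the other 8. Sample 10, with the highest Pdyn, was among the neurons with no Oprk1 fragment. Oprk1 was thus the 1 opioid gene of the 8 that reached 1 FPKM in no neuron, though samples 6 and 8 held some fragments of it. Oprd1 lies at chr4:132110726-132144486, minus strand, and Oprk1 at chr1:5588466-5606131, plus strand.

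Small counts were set beside the number that fragments of other libraries could give. Genes nearly private to 1 library, with 3000 fragments or more there and 1% of that number or less in each of the others (183 genes), appeared elsewhere at a median rate of 0.0143% over the 90 ordered pairs of libraries, with a highest rate of 0.286%. At these rates, sample 1 would hold 15.7 Penk fragments from the other libraries and had 12, and sample 9 would hold 65.9 and had 70. The rates out of samples 5, 6, 7 and 8, with the highest Penk, rest on 3, 5, 4 and 5 genes. With genes at 1000 fragments or more, the expected Penk fragments were 23.7 in sample 1 and 77.2 in sample 9. For Oprl1, the expected fragments in samples 1 to 4 were 3.43, 4.39, 2.46 and 2.30, beside 8, 7, 2 and 1 counted. The low values of Penk in samples 1 and 9 and of Oprl1 in samples 1 to 4 were thus of the order expected from the other libraries. For Oprm1, 0.304, 1.29 and 1.65 fragments were expected in samples 1, 5 and 9, beside 4, 3 and 1 counted. For Pdyn in samples 7, 8 and 9, 61.8, 10.3 and 13.7 fragments were expected and 17, 7 and 5 counted; the rates out of sample 10 rest on 3 genes there, and with genes at 1000 fragments or more (42 for sample 10) they gave 16.9, 7.34 and 5.31. The larger counts lay far from these expectations: Pnoc in sample 2 had 81 fragments where 0.00151 were expected. Oprk1, below 1 FPKM in every neuron, had 46 and 14 fragments in samples 6 and 8 where 0.00207 and 0.00253 were expected. After the expected fragments were subtracted, Penk was detected in 8 neurons in place of 9. Without samples 4 and 9, Penk was detected in 7 of 8 neurons and Oprl1 in 5 of 8, and the counts of the other 6 genes did not change. Without samples 1 to 4, Penk was detected in 6 of 6 neurons and Pnoc in 0. Those 6 include sample 9, whose 70 Penk fragments stood beside 65.9 expected from the other libraries.

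**Figure D3:**
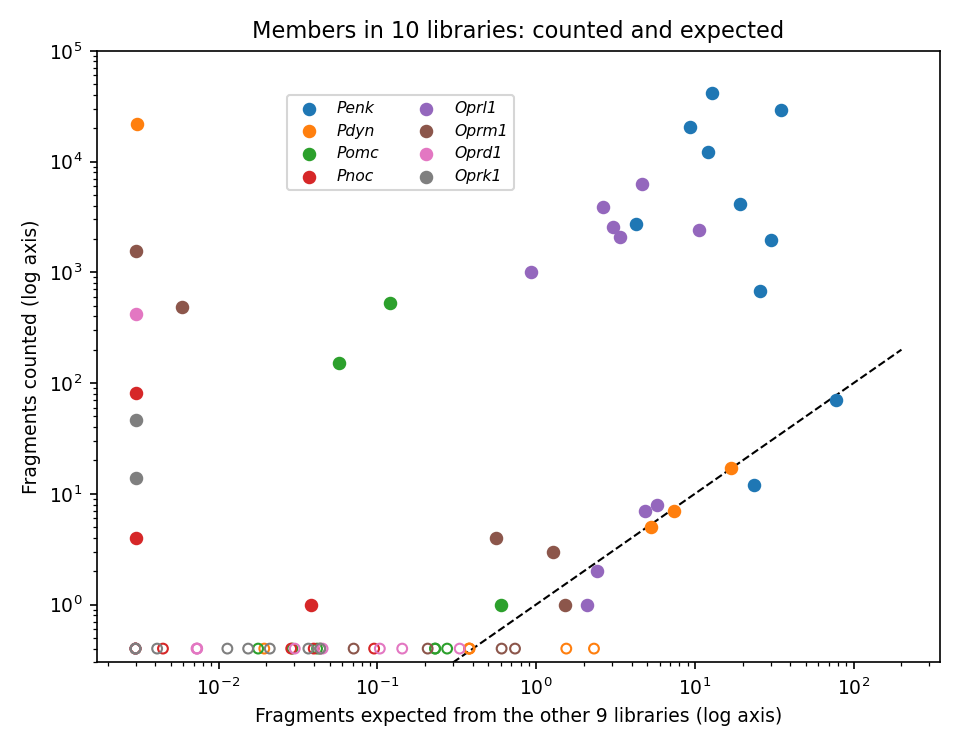
Fragments counted against fragments expected from the other 9 libraries, both on log axes, for the 8 genes in 10 libraries, with rates taken from genes at 1000 fragments or more; the dashed line marks equality, counts of 0 are drawn as open circles at 0.4 and expected values under 0.003 at 0.003. Pdyn in samples 7, 8 and 9 (17, 7 and 5 fragments) and Penk in sample 9 (70 fragments) lie near the line, and the other values at 1 FPKM or more lie far above it.

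The groups of the study were compared by whether all neurons of one group lay above all neurons of the other, since no group is replicated over named animals. Between the 4 Dbx1-derived and the 6 WT neurons, 1 of the 7 genes detected in any neuron (Oprm1) did not overlap, where 1.83% of all 16546 genes tested did not. That separation rests on 4 and 3 Oprm1 fragments in samples 1 and 5 against 1 fragment in sample 9. Without samples 1 to 4, Oprm1 alone again did not overlap, on 3 fragments in sample 5 against 1 in sample 9. Mean Oprm1 was 2.15 ± 2.91 FPKM (SD, n = 4) in Dbx1-derived and 0.000940 ± 0.00230 (n = 6) in WT neurons. Penk averaged 396 ± 336 FPKM in Dbx1-derived and 109 ± 179 in WT neurons, and sample 1, Dbx1-derived, was the lowest of all 10. Oprl1 averaged 25.8 ± 20.9 and 10.7 ± 13.5 FPKM. For both genes the groups overlapped widely.

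Between the 4 Type-1 and the 5 Unknown neurons, 0 of 7 genes did not overlap, beside 0.992% of 16238 genes, and 1 of 7 (Oprm1, resting on 3 fragments in sample 5 against 1 in sample 9) did not once sample 4, or samples 1 to 4, were left out. Penk averaged 399 ± 331 FPKM in Type-1 and 128 ± 193 in Unknown neurons, and Oprl1 25.8 ± 20.9 and 12.8 ± 14.0. Of the 4 Type-1 neurons 3 are Dbx1-derived and all Unknown neurons are WT, so type and line cannot be told apart. The single Type-2 neuron, sample 1, had none of the 8 genes at 1 FPKM. Its library is among those of lowest general level, samples 1 to 4, and samples 2, 3 and 4 likewise had no receptor gene at 1 FPKM. The part of that level was not tested. Between neurons of P0 or P1 and of P2 or P3, 0 of 7 genes did not overlap, beside 0.308% of all genes. Penk averaged 220 ± 240 FPKM at P0 and P1 and 228 ± 341 at P2 and P3, and Oprl1 16.0 ± 19.4 and 17.4 ± 17.8. For both genes the difference between ages was smaller than the spread between neurons.

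Sample 10 held Penk, Pdyn, Pomc, Oprl1 and Oprd1, the most opioid genes of any neuron; Pdyn was at 245 FPKM, and Pomc and Oprd1 were at 3.78 and 3.45. Its 7 microglia markers at 1 FPKM or more summed, with the eighth, to 198 FPKM, and their part in these values was not tested. The stretch of 250 bases before the annotated start is shown for the 3 of them detected in at most 2 neurons, since all 3 reached 1 FPKM there, as RefSeq gives it for GRCm38.p6. Capitals mark matches on either strand to a TATA box (TATAAA), an E-box (CACGTG) or a GC box (GGGCGG, or its complement where the match is on the other strand), and TGACG, the core of a cAMP response element, was also searched. The windows are chr2:129699939-129700188 (minus strand) for Pdyn, chr12:3954695-3954944 (plus strand) for Pomc and chr4:132144487-132144736 (minus strand) for Oprd1.
Pdyn: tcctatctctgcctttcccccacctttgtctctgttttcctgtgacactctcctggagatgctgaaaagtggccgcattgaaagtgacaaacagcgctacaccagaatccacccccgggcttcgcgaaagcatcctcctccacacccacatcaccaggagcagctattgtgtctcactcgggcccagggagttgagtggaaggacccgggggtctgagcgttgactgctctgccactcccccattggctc
Pomc: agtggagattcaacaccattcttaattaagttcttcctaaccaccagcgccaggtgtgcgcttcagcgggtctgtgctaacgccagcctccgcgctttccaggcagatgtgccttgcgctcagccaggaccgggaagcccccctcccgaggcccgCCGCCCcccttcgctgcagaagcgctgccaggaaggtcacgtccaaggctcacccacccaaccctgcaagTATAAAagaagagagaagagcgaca
Oprd1: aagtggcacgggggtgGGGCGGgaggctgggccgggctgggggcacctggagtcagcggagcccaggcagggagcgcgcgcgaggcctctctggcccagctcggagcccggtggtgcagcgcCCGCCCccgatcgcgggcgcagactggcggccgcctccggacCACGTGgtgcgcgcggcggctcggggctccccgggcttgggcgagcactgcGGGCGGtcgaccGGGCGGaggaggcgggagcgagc

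The 3 windows had no searched motif in common. The Pomc window held TATAAA at position -25 and a GC box on the other strand at -95, counted from the start. The Oprd1 window held CACGTG at -86 and GC boxes at -234, -35 and -23, with another on the other strand at -128. The Pdyn window held none of the 4 motifs. Among 32851 promoter windows of the same length, 12.4% held TATAAA, 6.02% CACGTG, 32.7% GGGCGG and 17.8% TGACG. The GC content was 57.2% for Pdyn, 60% for Pomc and 80% for Oprd1, beside a median of 52.4% over all windows. RefSeq holds a further Pdyn start, and neither the Pdyn start used here nor the Pomc start falls in a GENCODE M21 transcript.

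Genes that make, receive or end opioid signals were examined as 6 lists of 46 genes. Of the 41 detected in at least 1 neuron, 25 (61.0%) were detected in at least 5, beside 45.5% of the 16546 genes detected in any. The median of their mean FPKM was 5.89, beside 4.05. The lists were chosen with earlier results of these data known, so these shares are a description only. Among 8 genes of peptide processing and release, 5 were detected in at least 5 neurons. Cpe, the carboxypeptidase that trims opioid peptides, was at 382 ± 305 FPKM (SD, n = 10) and Scg5, the chaperone of prohormone convertase 2, at 167 ± 103, both in all 10 neurons. Pcsk2, prohormone convertase 2, was at 14.6 ± 18.5 FPKM and detected in 6 neurons. Pcsk1, prohormone convertase 1, was detected in sample 9 alone, at 54.9 FPKM. In sample 10, with the highest Pdyn, Pcsk1 and Pcsk2 were at 0.0175 and 0.0124 FPKM. Samples 5, 6, 7 and 8, with the highest Penk, held Pcsk2 at 15.1, 17.9, 29.5 and 13.5 FPKM. The highest Pcsk2 was 59.1 FPKM in sample 3, and sample 1, with the lowest Penk, held 10.6, so Pcsk2 and Penk did not share an order.

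All 5 alpha subunits of inhibitory G proteins were detected in at least 5 neurons. Gnai1 was at 67.2 ± 57.9 FPKM (8 neurons), Gnai2 at 52.2 ± 50.2 (9 neurons), Gnaz at 50.0 ± 33.5 (9 neurons) and Gnao1, the main such subunit of brain, at 19.3 ± 10.8 (9 neurons). Among 11 effectors, 4 were detected in at least 5 neurons. Cacna1a and Cacna1b, pore subunits of the P/Q-type and N-type calcium channels, were at 5.97 ± 7.99 FPKM (7 neurons) and 5.59 ± 5.68 (6 neurons), and Adcy5, an adenylyl cyclase, at 6.25 ± 8.39 (5 neurons). In samples 6 and 7, the neurons with Oprm1, Gnao1 was at 27.6 and 18.5 FPKM, Cacna1a at 6.44 and 13.9, and Cacna1b at 9.78 and 15.6. The inwardly rectifying potassium channel genes, named after their values were seen, were sparser. Kcnj3 was detected in sample 9 alone (23.8 FPKM), Kcnj9 in samples 4, 7 and 10 (2.35, 9.60 and 4.59 FPKM), and Kcnj5 and Kcnj6 in no neuron. Of the neurons with Oprm1, sample 7 held Kcnj9 and sample 6 held none of the 4 channel genes at 1 FPKM.

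Among 12 receptor kinases, arrestins and RGS proteins, which end receptor and G-protein signals, 9 were detected in at least 5 neurons. Rgs4 was at 31.6 ± 35.3 FPKM (7 neurons), Rgs19 at 22.9 ± 28.2 (8 neurons), Grk2, a receptor kinase, at 13.6 ± 17.7 (8 neurons) and Arrb2, beta-arrestin 2, at 7.94 ± 7.10 (7 neurons). Among 6 peptidases that break down opioid peptides, 1 was detected in at least 5 neurons, Dpp3, an enkephalin-degrading peptidase, at 5.89 ± 5.81 FPKM (6 neurons). Mme, neprilysin, was detected in sample 5 alone (5.59 FPKM), Ece2 in 4 neurons and Anpep, aminopeptidase N, in none. Among 4 other proteins that bind opioid peptides or carry their receptors, Ogfr, the opioid growth factor receptor, was at 19.1 ± 20.7 FPKM (6 neurons). Ackr3, a chemokine receptor that also takes up opioid peptides, was detected in sample 9 alone (23.3 FPKM), Wls in samples 4 and 8 (12.4 and 7.76 FPKM), and Rtp4, a receptor chaperone, had no fragment in any library.

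**Figure D4:**
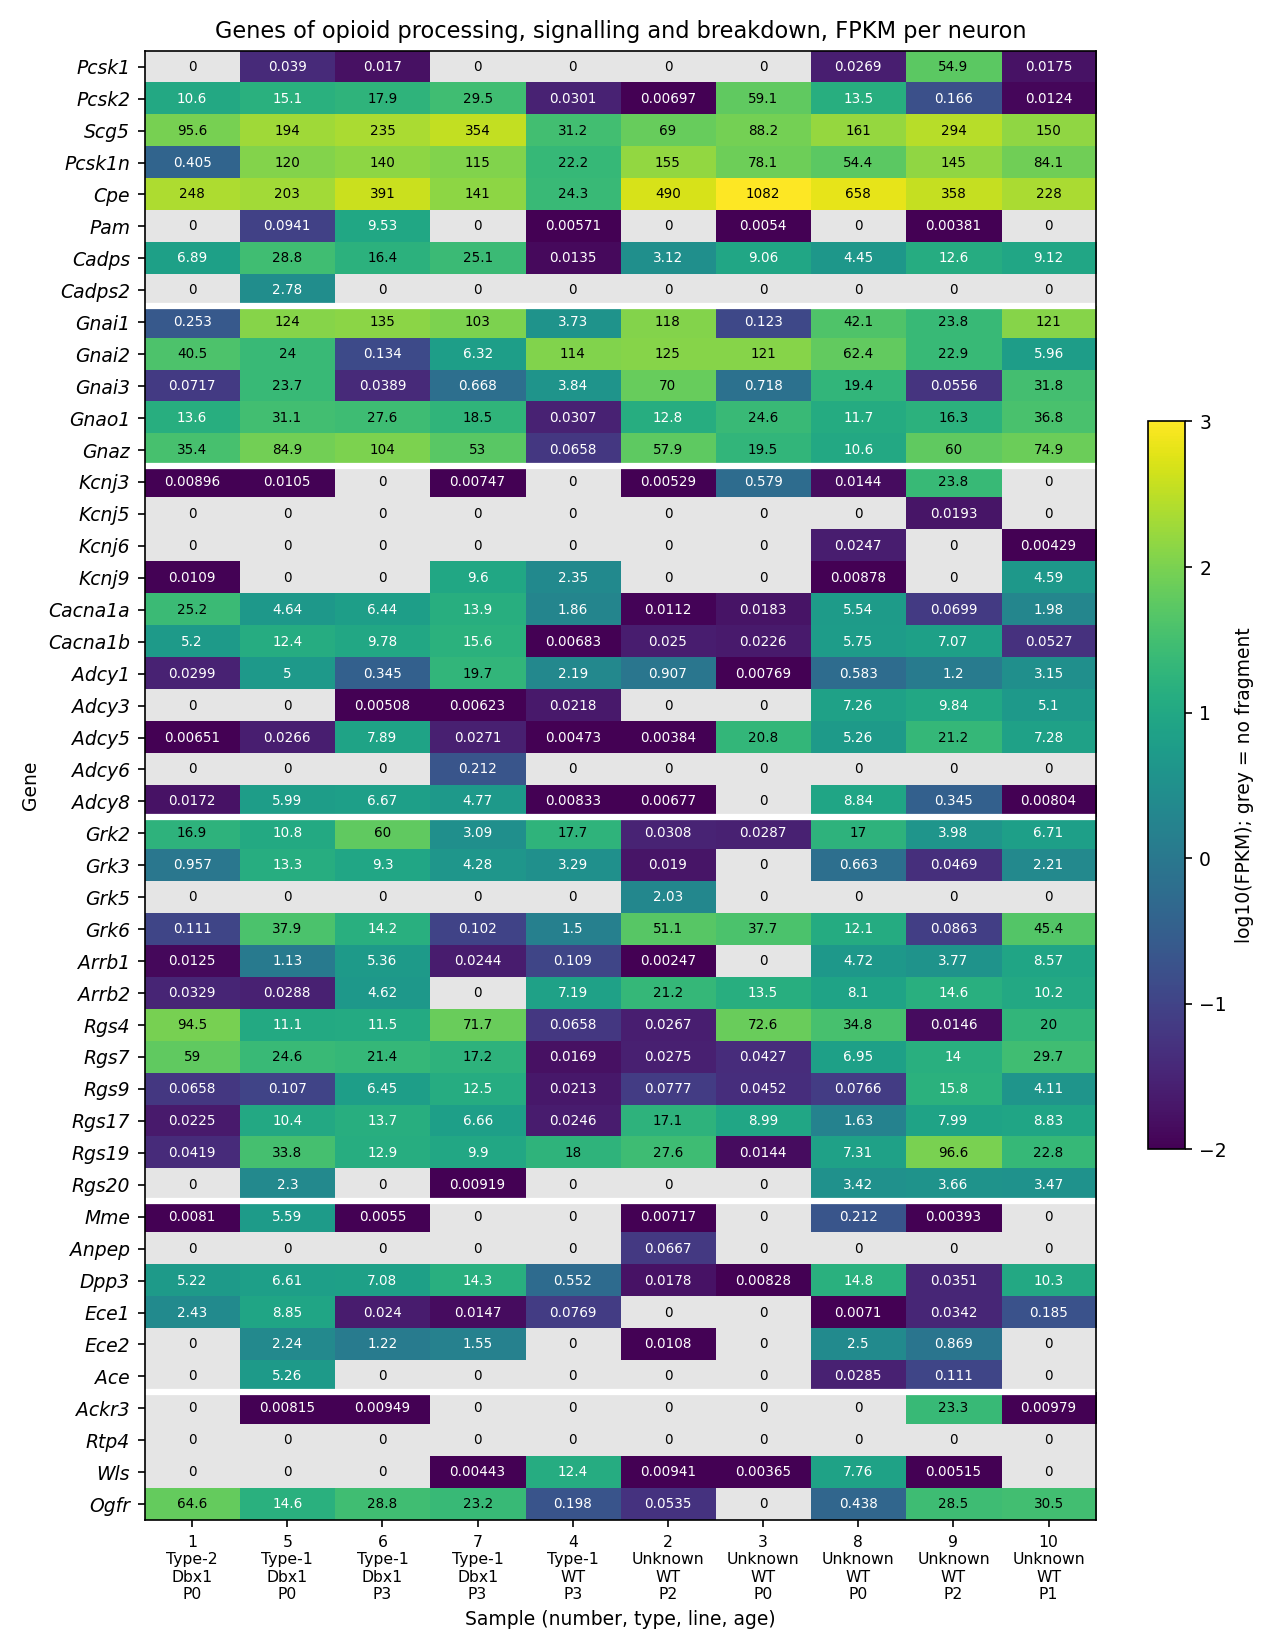
FPKM of the 46 genes of opioid processing, signalling and breakdown in each neuron, with white lines between the 6 lists; each cell prints its FPKM, colour gives log10(FPKM) within the limits of the colour bar, and grey marks a gene with no fragment. The G-protein alpha subunits, the second block, are detected in most neurons, and the potassium channel genes at the head of the third block are mostly grey or dark.

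For the 2 genes detected in at least 3 neurons, the genes most like them were found by Pearson's r of log2(FPKM + 1) over the 10 neurons, among 10420 genes detected in at least 3. Nearest to Penk were Zranb1 (r = 0.905), Hmgb1-ps4 (0.901), Atp8a2 (0.898), Tarsl2 (0.896) and Tmem106b (0.880). Nearest to Oprl1 were Glrb (r = 0.991), Panx1 (0.987), Hs3st1 (0.984), Ccnq (0.980) and Trp53inp2 (0.980). Glrb, the beta subunit of the glycine receptor, was at 105.5, 97.6, 112, 59.5, 119.7 and 20.9 FPKM in samples 5 to 10 and at most 0.201 in samples 1 to 4, which are also the neurons without Oprl1 and the libraries of lowest general level. Penk and Oprl1 themselves had r = 0.527. These values describe 10 libraries that share differences in gene number and general level. The nearest genes of both changed with the settings: of the 5, a pseudocount of 0.1 kept 1 for Penk and 3 for Oprl1, and Spearman's rho kept 0 and 2.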

How the data were processed

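RNA of 10 single neurons was sequenced as paired-end reads after SMART-Seq amplification. The authors checked reads with FastQC 0.11.8, trimmed adapters, aligned with STAR 2.7.7a to GRCm38 and counted with featureCounts. Their deposited files hold gene lengths, unnormalized counts of fragments, and FPKM. Options for strand, multiple matches and overlapping genes are not given in the sources used here. The deposited FPKM equal the count per kilobase and per 1000000 counted fragments, which was checked. No sample column was left unused (0).

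The members and lists were chosen with earlier results of these data known. Named beside the 8 members were up to 4 genes per list, transmitter genes, overlapping genes, and the 5 nearest genes of each member detected (1 FPKM or more) in at least 3 neurons. No test across genes was made, and library total and the limit of 3 counts set the precision. Rates between libraries were ratios of sums over private genes, with 5% of genes trimmed at each end, rounded down. Sources with 3 to 5 private genes therefore had none trimmed. The code was tested on simulated data with private genes of 1000 counts, not of 3000. Alternatives were TPM, other limits, thinning, subtraction of expected counts, leaving out neurons, private genes of 1000 or 10000 counts or 2% elsewhere, a pseudocount of 0.1 and rank correlation. Positions are from GENCODE M21 and promoters from RefSeq, with entries for 5 of 8 members. Matplotlib 3.10.9, SciPy 1.17.1, pandas 2.3.3 and NumPy 2.4.6 were run under Python 3.11.15.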

Additional observations from a re-analysis of the deposited data

Results flagged for a closer look

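In each type or line with 4 or more neurons, the highest and lowest neuron of each opioid gene was compared with its neighbour by Dixon's criterion at the 95% level. The rate of about 1 in 20 sets by chance holds for normally distributed values, which these are not. A neuron stood apart in 20 of 30 sets here. Most of these sets are 0 in all but 1 neuron, which the criterion then flags whatever its level. The number of flags therefore cannot be set against the chance rate. The same neurons recur because types and lines overlap.

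Among the Type-1 neurons, and likewise among the Dbx1-derived neurons, Pdyn in sample 7 (0.229 FPKM), Pomc in sample 7 (15.5 FPKM) and Oprk1 in sample 6 (0.160 FPKM) stood apart from the others, which were at 0 except for Pomc in sample 1 (0.0355 FPKM, among the Dbx1-derived neurons). Among the Unknown neurons, and likewise among all WT neurons, sample 8 stood apart in Penk (470 FPKM, with the next neuron at 81.8) and in Oprk1 (0.0576 FPKM). Sample 10 stood apart in Pdyn (245 FPKM), Pomc (3.78 FPKM) and Oprd1 (3.45 FPKM) in both sets. Sample 2 did so in Pnoc (1.04 FPKM) and sample 9 in Oprm1 (0.00564 FPKM, a single fragment). The values of Pdyn in sample 7 and Oprm1 in sample 9 were below the number expected from other libraries at the rates of private genes of 3000 fragments.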

How the results depend on the processing

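Of 215 alternative values computed for the results above, 198 stayed within the spread between neurons or within 1.5 times the count, and 17 moved. A change of direction was not assessed. The 104 alternatives of mean levels were judged by the SD, which exceeded the mean for every opioid gene. No fall of a mean, even to 0, could therefore count as moved. The SD over neurons is wide, and without 1 neuron the mean ran from 0.0443 to 27.3 FPKM for Pdyn, 0 to 0.383 for Oprd1, 0.00795 to 0.123 for Pnoc, 0.424 to 2.15 for Pomc, 0.267 to 0.954 for Oprm1 and 0.00640 to 0.0241 for Oprk1. In TPM the mean level was 622 for Penk and 44.9 for Oprl1, and both were counted as moved. TPM is another unit, and its means were also higher for every other opioid gene, such as Pdyn (72.7) and Oprm1 (2.55). With a detection limit of 0.1 FPKM, Pdyn was detected in 2 neurons and Oprk1 in 1, and with a limit of 10 FPKM Pnoc in 0, Pomc in 1, Oprm1 in 0 and Oprd1 in 0. Pnoc was detected in 0 neurons once libraries were thinned to the smallest total, and in 0 without samples 1 to 4. Genes not overlapping between Dbx1-derived and WT neurons fell to 0 when the highest neuron had to reach 10 FPKM, and between Type-1 and Unknown neurons the count ran from 0 to 1 as neurons were left out, reaching 1 without sample 4 and also 1 without samples 1 to 4. With private genes of 1000 fragments the median rate between libraries was 0.00693%, and with 2% allowed elsewhere 0.0180%; at 10000 fragments 6 of 10 libraries had no private gene, so that setting gave no value. Causes were not tested.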
